A study of Mus musculus with 15 samples.

Results

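The genes described here are 10 markers of vascular and sinusoidal endothelial cells, taken by symbol from the 54532 genes counted in the livers and lungs of mice fed with or without added phytosterols. They are Kdr, Flt1, Tek, Vwf, Car4, Eng, Stab1, Stab2, Lyve1 and Clec4g, and each symbol was found once in the count tables of both tissues. The mice were male, wild-type C57BL/6J animals, an inbred laboratory strain. The labels give an age of 28 weeks, which is less than the age at purchase, the adaptation and the feeding add up to in the study's methods, so the age at sampling is uncertain. The CS group received a control diet, and the PS group received the same kind of diet with 2% phytosterols, plant sterols that resemble cholesterol. Poly(A) RNA was sequenced for 9 livers (4 CS, 5 PS) and 6 lungs (3 CS, 3 PS), and the 6 lungs came from mice whose livers were also sequenced. The lungs of PS replicates 1, 2 and 3 belong to the mice of liver PS replicates 1, 3 and 5, and the lungs of CS replicates 1, 2 and 3 to those of liver CS replicates 1, 2 and 3. The samples were pieces of whole tissue, so fewer endothelial cells and less RNA per endothelial cell cannot be told apart.

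Endothelial cells line all blood vessels and differ between organs. In the liver, sinusoidal cells form a leaky, fenestrated lining that takes up waste molecules from the blood through scavenger receptors such as the stabilins. In the lung, a dense capillary net of other endothelial cells lies against the alveoli and serves gas exchange. VEGF signaling through KDR and angiopoietin signaling through TEK maintain both kinds of vessel.

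The members fall into 4 kinds by role. Kdr and Flt1 encode receptors for VEGF, Tek encodes the receptor for the angiopoietins, and Eng encodes endoglin, a co-receptor for BMP9 and TGF-beta ligands. Vwf encodes von Willebrand factor, the clotting and platelet adhesion protein of larger vessels, and Car4 a carbonic anhydrase at the cell surface that marks a class of lung capillary cells. Stab1 and Stab2 encode scavenger receptors, and Lyve1 a hyaluronan receptor known from lymphatic vessels and sinusoids. Clec4g encodes a C-type lectin of sinusoidal endothelium in the liver. In the coordinates of the deposited tables (GRCm38), Kdr lies on chromosome 5 from 75932827 to 75978458 on the minus strand, and Stab1 on chromosome 14 from 31139013 to 31168641 on the minus strand. Stab2 lies on chromosome 10 from 86841198 to 87008025 and Clec4g on chromosome 8 from 3707064 to 3720651, both on the minus strand. Car4 lies on the plus strand of chromosome 11 from 84957786 to 84966044.

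The 250 bases upstream of the start are shown for the 5 members on which the results turn, the pair called between the diets in the lung (Kdr and Stab1), the pair higher in the liver (Stab2 and Clec4g) and the one nearly absent from the liver (Car4). The sequences are those of RefSeq on GRCm38.p6, 5′ to 3′ on the strand of the gene, and 8 of the 10 members were matched there. For Kdr, Stab2 and Car4 the RefSeq start differs from that of the deposited coordinates. The Kdr and Stab2 windows reach into the gene as given above, and the Car4 window ends short of it. Capitals mark matches on either strand to the ETS core CCGGAA, the GATA motif AGATAA, the GC box GGGCGG and the TATA box TATAAA and a match to the other strand appears as the reverse complement. The windows are chr5:75978456-75978705 for Kdr, chr14:31168642-31168891 for Stab1, chr10:87007943-87008192 for Stab2, chr8:3720652-3720901 for Clec4g and chr11:84957504-84957753 for Car4.
Kdr: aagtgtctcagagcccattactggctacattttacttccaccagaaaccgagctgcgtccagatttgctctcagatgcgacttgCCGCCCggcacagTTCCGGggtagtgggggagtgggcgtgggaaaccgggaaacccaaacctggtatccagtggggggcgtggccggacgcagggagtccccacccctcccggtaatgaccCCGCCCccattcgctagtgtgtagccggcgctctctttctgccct
Stab1: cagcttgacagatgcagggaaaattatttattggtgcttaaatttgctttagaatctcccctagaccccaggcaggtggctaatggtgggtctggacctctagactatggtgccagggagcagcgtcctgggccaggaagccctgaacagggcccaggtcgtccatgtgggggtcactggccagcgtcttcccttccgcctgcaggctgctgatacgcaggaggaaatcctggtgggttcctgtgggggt
Stab2: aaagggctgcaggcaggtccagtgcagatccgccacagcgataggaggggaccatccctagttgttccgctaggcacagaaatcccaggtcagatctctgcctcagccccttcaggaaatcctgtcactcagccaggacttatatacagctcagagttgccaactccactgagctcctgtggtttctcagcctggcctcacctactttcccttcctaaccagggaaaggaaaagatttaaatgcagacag
Clec4g: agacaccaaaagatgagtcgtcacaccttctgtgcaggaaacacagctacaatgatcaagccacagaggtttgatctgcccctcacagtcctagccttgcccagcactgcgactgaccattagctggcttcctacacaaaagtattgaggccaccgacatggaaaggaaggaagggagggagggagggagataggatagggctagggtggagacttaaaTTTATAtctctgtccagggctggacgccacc
Car4: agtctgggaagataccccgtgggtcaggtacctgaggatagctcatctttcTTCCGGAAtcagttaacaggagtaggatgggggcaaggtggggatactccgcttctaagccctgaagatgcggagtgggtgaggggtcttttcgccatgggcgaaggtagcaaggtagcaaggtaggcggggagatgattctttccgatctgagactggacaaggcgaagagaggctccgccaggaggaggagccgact
The Kdr window held 1 ETS core and 2 GC boxes. The Car4 window held 2 ETS cores that overlap, 1 on each strand, and the Clec4g window 1 TATA box on the other strand. Neither stabilin window held a match to any of these letters. Of the 3 members matched but not shown, the Flt1 window held 3 GC boxes and 1 TATA box, and those of Tek and Eng held no match. Among 32851 promoter windows of the same length, 12.03% held the ETS core, 9.99% the GATA motif, 32.7% the GC box and 12.4% the TATA box, so none of these matches is rare.

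The total count per library ranged from 14410117 to 17625179 in the livers and from 17934930 to 19396057 in the lungs. Levels are given as CPM, counts per 1000000 of the library size after scaling by TMM, which matches libraries by the bulk of their genes. For comparisons between genes, CPM was divided by the gene length in kilobases. CS replicate 2 stood apart among the livers, with a standard deviation of 1.09 of its log2 deviations from the group mean, against 0.585 to 0.873 in the other 8 livers. Hepatocyte markers summed to 114500 to 179500 CPM in the livers and to 3.78 to 73.8 CPM in the lungs, and the 6 lung epithelium markers to 31.8 to 79.9 CPM and 34010 to 55070 CPM, so each library carried the markers of its labelled tissue.

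The organs differed strongly in which of the 10 genes they expressed. In the lung the vascular members and Lyve1 were 4.82-fold to 42.01-fold higher than in the liver by edgeR, while Stab2 was 58.9-fold and Clec4g 36.2-fold lower. Car4 was all but absent from the liver, and Stab1 overlapped between the tissues and was not called, a result that depended on 1 library and on the scaling. At an adjusted p under 0.05 in edgeR's fit over all 15 libraries, 7 members were called higher in the lung, where 42.3% of the 17696 genes tested were called, and 2 were called lower, where 34.4% were called. The median log2 difference of the 10 members was 3.74, and over all genes tested it was 0.17.

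**Figure D1:**
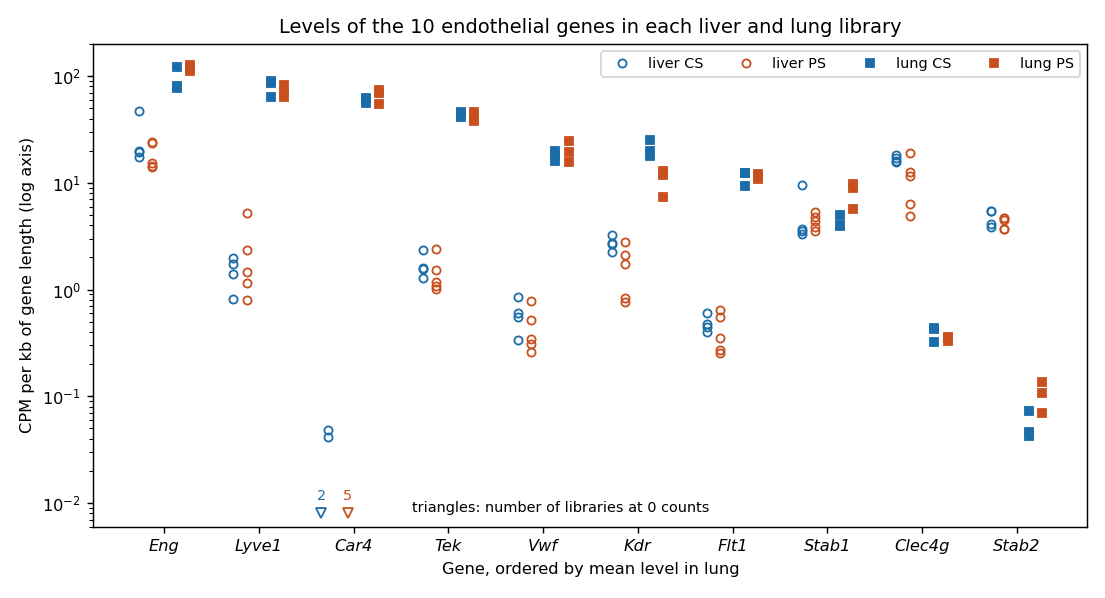
Level of each of the 10 genes in CPM per kilobase of gene length (vertical log axis) in each of the 9 livers (open circles) and 6 lungs (filled squares), with CS in blue and PS in orange. Triangles give the number of livers with 0 counts of Car4. Stab2 and Clec4g lie lower in every lung than in any liver, Stab1 overlaps between the tissues, and the other 7 genes lie higher in every lung.

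In the liver Eng stood highest per length, with 21.7 ± 10.1 CPM per kb (SD, n = 9), followed by Clec4g with 13.5 ± 5.14 (SD, n = 9). Eng was above Clec4g in 9 of 9 livers, although the ranges of the pair overlap across mice. Stab1 with 4.68 ± 1.92 and Stab2 with 4.45 ± 0.680 CPM per kb (SD, n = 9) did not differ beyond their spread, and Stab1 was the higher in 4 of 9 livers. Next came Kdr at 2.13 ± 0.877 CPM per kb, and its range did not reach that of Stab2. Lyve1 at 1.87 ± 1.34 and Tek at 1.55 ± 0.505 CPM per kb overlapped with Kdr and with each other (SD, n = 9). Vwf at 0.507 ± 0.213 and Flt1 at 0.446 ± 0.140 CPM per kb were the lowest that were measured in every liver (SD, n = 9).

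In the lung the order of the levels was another. Eng again stood highest at 106 ± 21.4 CPM per kb (SD, n = 6), above Lyve1 at 75.8 ± 11.2 in 5 of 6 lungs. Car4 followed at 62.9 ± 7.89 CPM per kb, below Lyve1 in 6 of 6 lungs. Tek, at 42.8 ± 3.53 CPM per kb (SD, n = 6), overlapped neither with Car4 above it nor with Vwf below it. Vwf at 19.02 ± 3.18, Kdr at 15.9 ± 6.47 and Flt1 at 11.4 ± 1.14 CPM per kb formed a group in which neighbours overlapped (SD, n = 6). Stab1 came next at 6.23 ± 2.54 CPM per kb, and both Clec4g at 0.373 ± 0.04995 and Stab2 at 0.0791 ± 0.0360 CPM per kb lay far below (SD, n = 6).

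Car4 gave the sharpest contrast between the organs. It had 1 count in liver CS replicate 1, 1 count in liver CS replicate 4 and 0 counts in the other 7 livers, against 3428 to 4925 counts in each lung. The summed 0 counts of the 5 PS livers allow a level of up to 0.0549 CPM, taken as 3 counts over that group. The ratio of lung to liver at equal scaled depth was 6150 (95% exact counting interval, 1700 to 50800), and this interval and the limit cover counting error only. Car4 did not pass edgeR's filter on low counts in the liver, so it has no diet comparison there.

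Stab2 showed the reverse. Its level in the livers ran from 32.2 CPM through a median of 39.4 to 47.8 CPM, and in the lungs from 0.373 through 0.625 to 1.19 CPM, or 13 to 40 counts per lung. The fitted log2 difference between lung and liver was -5.88 (SE 0.21, edgeR adjusted p = 2.34e-13), lower in 6 of 6 lungs than in any liver. Clec4g ran from 12.1 CPM through 38.9 to 47.3 CPM in the livers and from 0.791 through 0.884 to 1.07 CPM in the lungs. Its log2 difference was -5.18 (SE 0.30, edgeR adjusted p = 7.22e-11), and the tissues did not overlap. The exons of Stab2 and Clec4g overlap by 141 and 146 bases with the unnamed genes Gm16268 and Gm16553 on the other strand, and whether the counting used the strand is not stated in the sources used here.

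Stab1, the other stabilin, did not follow Stab2. It ran from 34.3 CPM through 40.1 to 97.6 CPM in the livers and from 40.3 through 54.6 to 101 CPM in the lungs. The log2 difference of lung over liver was 0.33 (95% interval, -0.13 to 0.79, edgeR adjusted p = 0.175). Leaving out liver CS replicate 2, which had the highest liver level, made it 0.58 (edgeR adjusted p = 0.00101), so this library decided the call. Within the PS group Stab1 was higher in the lung by 0.88 (SE 0.30, edgeR adjusted p = 0.0145), and within the CS group the difference was -0.22 (SE 0.32, edgeR adjusted p = 0.556). The test of the difference between these values, the interaction, did not call Stab1 (edgeR adjusted p = 0.403). Of the CS livers, replicate 2 stood at 97.6 CPM. The other CS livers, at 34.3 to 38.2 CPM, lay below every CS lung, at 40.3 to 51.2 CPM.

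Among the remaining members, Lyve1 was higher in the lung by 5.39 on the log2 scale (SE 0.34), Vwf by 5.22 (SE 0.26), Tek by 4.78 (SE 0.20) and Flt1 by 4.67 (SE 0.20). The difference was smaller for Kdr, at 2.82 (SE 0.24), and for Eng, at 2.27 (SE 0.23). The largest edgeR adjusted p of these 6 genes was that of Eng, 8.96e-08. The VEGF receptors thus differed from each other in their balance between the organs, with Kdr 7.07-fold and Flt1 25.4-fold higher in the lung. All 12 pan-endothelial genes listed, among them Pecam1, a junction adhesion molecule of endothelium, and Cdh5, the endothelial cadherin, were also called higher in the lung, with a median log2 difference of 4.05. Their summed level was 96.3 to 247 CPM in the livers and 2471 to 3133 CPM in the lungs. The 16 further sinusoidal markers went both ways, with 4 called higher and 9 called lower in the lung and a median of -1.34, which was 0.04 with column totals in place of TMM (7 higher and 6 lower) and, taken relative to all genes, -1.50 and -1.51. Among those called lower, Oit3 and Dnase1l3, both known from sinusoidal endothelium, differed by -4.72 and -4.32 on the log2 scale.

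These differences depend on how the tissues are put on a common scale. With column totals alone, without TMM, the median log2 difference over all genes was 1.55 in place of 0.17, and 12795 genes were called higher and 2608 lower in place of 7489 and 6090. Relative to that median the members moved little. Stab1 lay 0.17 above the median with TMM and 0.18 above it with column totals, Kdr 2.66 and 2.65 above, and Stab2 was at -6.05 and -6.04 relative to it. The direction of the 9 members other than Car4 was the same under each of 3 scalings.

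**Figure D2:**
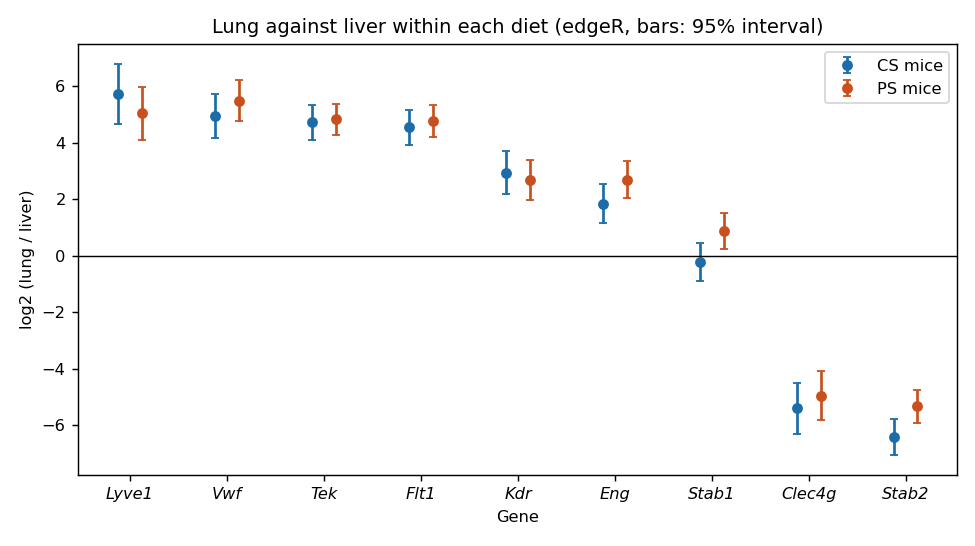
Fitted log2 difference of lung over liver (vertical axis) for 9 of the genes within CS mice (blue) and within PS mice (orange), with 95% intervals. Both come from 1 fit over all 15 libraries. Car4 is left out because 2 counts in 9 livers give no stable fold. Stab1 sits at -0.22 in CS and 0.88 in PS mice, and the other 8 genes lie on the same side of 0 in both diets. The CS value of Stab1 includes liver CS replicate 2 at 97.6 CPM, and the other CS livers lay below every CS lung.

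In the lungs of the PS group, Kdr was lower and Stab1 higher than in the CS group, and the other 8 members did not pass the test. Kdr stood at 229, 181 and 163 CPM in CS replicates 1, 2 and 3 and at 115, 66.7 and 107 CPM in PS replicates 1, 2 and 3. The highest PS lung thus lay below the lowest CS lung. The mean was 191 ± 34.4 CPM with the control diet and 96.4 ± 26.0 CPM with phytosterols (SD, n = 3 each), which gives a log2 fold change of -0.95 (SE 0.23, edgeR adjusted p = 0.0412). At 2142 to 7981 counts per lung, counting error was small beside the differences between mice.

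Stab1 stood at 40.3, 51.2 and 41.6 CPM in the 3 CS lungs and at 57.9, 92.5 and 101 CPM in the 3 PS lungs. Every PS lung was above every CS lung, with PS replicate 1 closest to the CS group. The mean rose from 44.4 ± 5.93 to 83.7 ± 22.7 CPM (SD, n = 3 each), a log2 fold change of 0.96 (SE 0.23, edgeR adjusted p = 0.0394). The exons of Stab1 overlap by 112 bases with Nt5dc2 on the other strand.

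Thus 1 of the 10 members was called higher in the lung, where 4.80% of the 16717 genes tested were, and 1 was called lower, where 4.43% were. At an unadjusted p of at most 0.05 stood 3 members, against 30.1% of all genes tested. Groups did not overlap for 1 member in each direction, against 15.7% of all genes with PS higher and 20.5% with PS lower. With 10 members, 1 gene each way cannot be told apart from these shares over all genes. The median log2 fold change was 0.12 over the members and 0.01 over all genes tested.

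**Figure D3:**
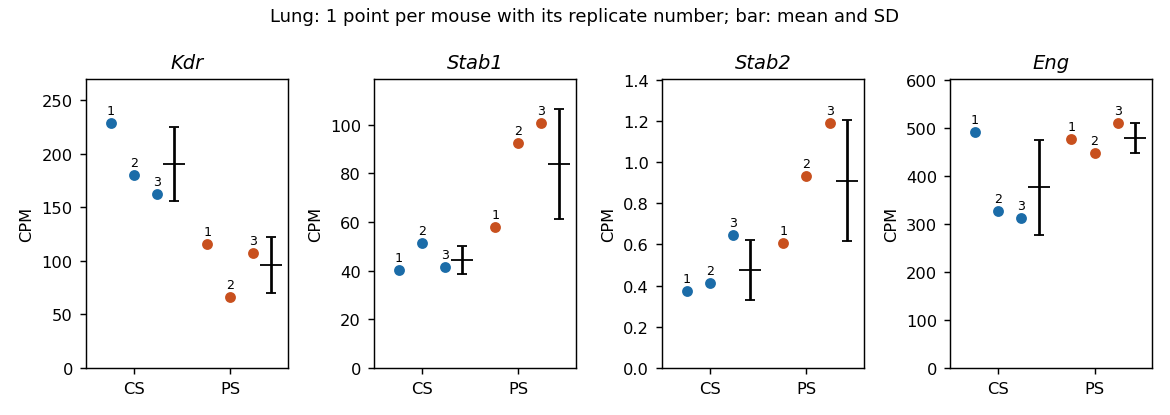
CPM (vertical axes from 0) of Kdr, Stab1, Stab2 and Eng in the lung of each mouse, with replicate numbers, and the mean and SD of each group as a bar. Kdr separates the groups downward and Stab1 upward, while Stab2, at 0.373 to 1.19 CPM, and Eng overlap between CS and PS.

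Both calls rested on the 3 mice of each group. Kdr kept an edgeR adjusted p under 0.05 without PS replicate 1 or PS replicate 3 and lost it without any of the 4 other lungs, with adjusted p from 0.0291 to 0.128 over the 6 fits. Its log2 fold change in these fits ran from -1.08 to -0.74. Stab1 kept the call without PS replicate 1 and lost it without any of the other 5 lungs, with log2 fold changes from 0.78 to 1.17 and edgeR adjusted p from 0.00594 to 0.135. Base composition moved with the diet in the lung libraries, and Stab1 with 57.3% G and C in its longest transcript differs from Kdr with 49.4%. At these GC contents, the trends of the PS and CS lungs differed by 0.15 for Stab1 and by -0.10 for Kdr on the log2 scale. With these trends removed, Stab1 was at 0.79 (edgeR adjusted p = 0.0429) and Kdr at -0.87 (adjusted p = 0.0481). With each library's trend with gene length removed, Kdr was at -0.83 with an edgeR adjusted p of 0.05003 and no longer passed.

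Stab2 had a fold change as large as that of its relative but far fewer counts. The CS lungs held 13, 14 and 21 counts and the PS lungs 18, 30 and 40 counts, so CS replicate 3 lay above PS replicate 1. The log2 fold change was 0.97 (95% interval, 0.0003 to 1.95), with an unadjusted p of 0.04995 and an adjusted p of 0.166 from edgeR. Stab1 and Stab2 in the lung correlated with Pearson r = 0.62 over 6 lungs after the group means were subtracted, a description of libraries that share depth and dissection.

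The other members had overlapping diet groups in the lung. Eng stood at 491, 327 and 312 CPM in the CS lungs and at 478, 449 and 511 CPM in the PS lungs, where CS replicate 1 overlapped with the PS group. Its log2 fold change was 0.38 (95% interval, -0.10 to 0.86, edgeR adjusted p = 0.257). Over the fits without 1 lung each it ran from 0.27 to 0.59, with edgeR adjusted p from 0.145 to 0.558. Flt1, the second VEGF receptor, had 166, 166 and 127 CPM in the CS lungs and 155, 146 and 164 CPM in the PS lungs, and its groups overlapped. The intervals of the log2 fold change ran from -0.32 to 0.42 for Flt1 and from -0.42 to 0.25 for Tek. Vwf at 0.18, Car4 at 0.18, Lyve1 at -0.10 and Clec4g at -0.15 also had intervals that include 0, with edgeR adjusted p from 0.492 to 0.795.

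Kdr was also set against other endothelial genes of the same lung. Its log2 level minus the mean of 11 pan-endothelial genes was 0.13 ± 0.21 in CS lungs and -1.06 ± 0.29 in PS lungs (SD, n = 3 each), a shift of -1.19 with no overlap. Over the 16717 genes tested, 31.9% were lower in PS lungs with no overlap on this measure and 5.9% higher. Tek, which overlapped between the groups in CPM, shifted by -0.30 on it with no overlap. Stab1 shifted by 0.70 with overlap between the groups. The pan-endothelial mean itself was 7.33 to 7.49 in the CS lungs and 7.46 to 7.72 in the PS lungs, as log2 CPM.

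**Figure D4:**
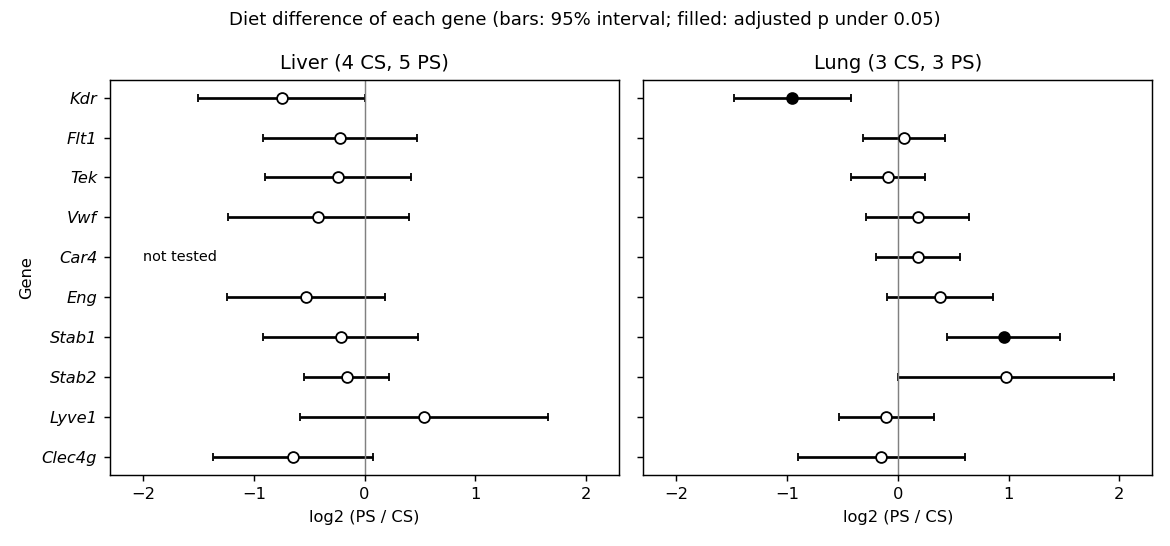
Log2 fold change of PS over CS (horizontal axis) with 95% intervals for each gene in the liver (left) and the lung (right), where filled points have an edgeR adjusted p under 0.05. Kdr at -0.95 and Stab1 at 0.96 in the lung are the filled points, and in the liver 8 of the 9 points lie below 0 with intervals that include it.

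In the liver no member passed the test between the diets, and 8 of the 9 tested had a lower fitted level in the PS group. By edgeR, 0 of 9 members were called at an adjusted p under 0.05 and 0 at an unadjusted p of at most 0.05. Over the 13195 genes tested 0.00758% were called after adjustment, and at the unadjusted threshold 3.96% were higher and 3.58% lower, which became 7.77% and 6.37% without liver CS replicate 2. DESeq2's Wald test called 0 members after adjustment and had 1 at an unadjusted p of at most 0.05, against 9.17% of all genes. For 0 members did the diet groups not overlap, against 2.33% of all genes with PS higher and 1.33% with PS lower. The median log2 fold change of the 9 members was -0.24, and over all genes it was -0.03. Lyve1 was the member with a higher fitted level, at 0.54, and it was below 0 without PS replicate 5, at -0.05.

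Kdr came nearest to the threshold. It stood at 29.5, 20.3, 24.3 and 24.9 CPM in CS replicates 1 to 4 and at 6.94, 15.6, 7.52, 18.9 and 25.3 CPM in PS replicates 1 to 5. PS replicates 1 and 3 were far below the CS range, 2 and 4 just below it, and PS replicate 5 within it. The log2 fold change was -0.75 (95% interval, -1.51 to 0.01), with an unadjusted p of 0.0521 and an adjusted p of 0.665 from edgeR. Without CS replicate 2 it was -0.82, with an unadjusted p of 0.0428 and an adjusted p of 0.335 from edgeR. Clec4g had the same shape, with 42.3, 39.7, 38.9 and 45.0 CPM in the CS livers and 15.6, 30.8, 12.1, 28.3 and 47.3 CPM in the PS livers. Again PS replicates 1 and 3 were lowest and PS replicate 5 was above all CS livers. The mean was 41.5 ± 2.80 CPM (SD, n = 4) against 26.8 ± 13.96 CPM (SD, n = 5), and the log2 fold change -0.64 (SE 0.33, edgeR adjusted p = 0.709).

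Flt1 and Lyve1 had the PS mice in the same order as Kdr, at lower levels. Flt1 had 8.20, 5.40, 6.40 and 6.04 CPM in the CS livers and 3.47, 4.73, 3.68, 7.55 and 8.71 CPM in the PS livers. Lyve1 had 4.06, 5.02, 5.81 and 2.40 CPM in the CS livers and 2.35, 4.30, 3.33, 6.87 and 15.1 CPM in the PS livers, so PS replicate 5 was highest for both. After the group means were subtracted, Kdr correlated over the 9 livers with Flt1 (Pearson r = 0.94) and with Clec4g (r = 0.94), and Flt1 with Lyve1 (r = 0.81). These correlations are descriptions over livers that share diet, depth and handling. Over the 6 lungs, the highest r of a pair of members was 0.97 (Flt1 and Lyve1) and the lowest -0.95 (Tek and Stab2). Kdr there had r = 0.60 with Flt1 and r = 0.33 with Clec4g.

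**Figure D5:**
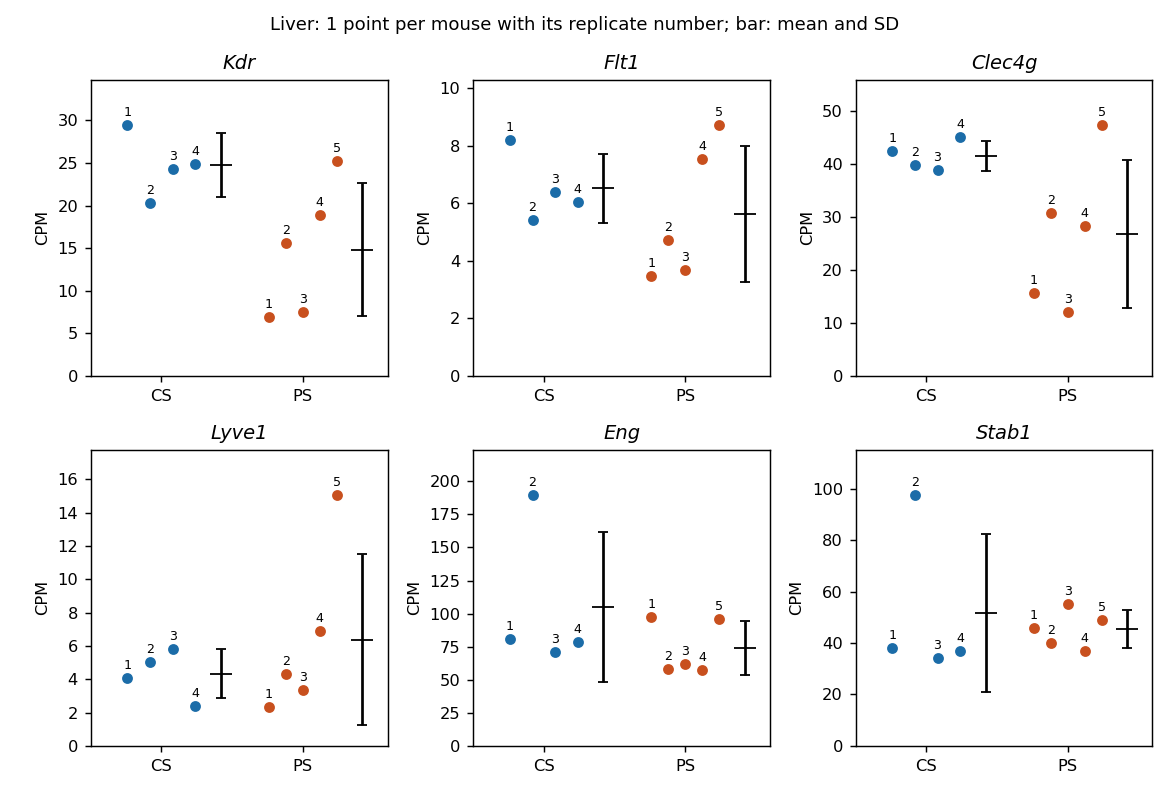
CPM (vertical axes from 0) of 6 members in the liver of each mouse, with replicate numbers, and the mean and SD of each group as a bar. PS replicates 1 and 3 are low for Kdr, Flt1 and Clec4g, PS replicate 5 is high for Lyve1 at 15.1 CPM, and CS replicate 2 is high for Eng at 190 CPM and Stab1 at 97.6 CPM.

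Eng and Stab1 varied with another mouse. Eng stood at 80.5, 190, 70.8 and 78.9 CPM in the CS livers and at 97.3, 58.2, 61.9, 57.0 and 95.7 CPM in the PS livers. Stab1 stood at 38.2, 97.6, 34.3 and 36.7 CPM in the CS livers and at 45.7, 40.1, 55.2, 36.8 and 49.1 CPM in the PS livers. CS replicate 2 was the highest liver for both genes, which correlated with r = 0.85 over the 9 livers. Without this mouse the log2 fold change of Stab1 went from -0.22 to 0.32 (edgeR adjusted p = 0.415), and that of Eng from -0.53 to -0.05. Stab2 had neither pattern, with 33.6 to 47.8 CPM in the CS and 32.2 to 41.3 CPM in the PS livers, a log2 fold change of -0.16 (95% interval, -0.54 to 0.22), which was -0.06 without this mouse. The exons of Eng overlap by 61 bases with Fpgs on the other strand.

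Vwf and Tek were low in the liver. Vwf had 50 to 144 counts per liver and a log2 fold change of -0.42 (SE 0.37), which was -0.16 without CS replicate 2. Tek had 43 to 115 counts and -0.24 (SE 0.30), which was -0.06 without CS replicate 4. The diet groups overlapped for both.

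Of the other endothelial markers of the liver, the pan-endothelial and sinusoidal lists also had lower fitted levels in the PS group, and none passed the adjustment. Of the pan-endothelial genes 12 of 12 had a lower fitted level (median log2 fold change -0.56), and 2 were at an unadjusted p of at most 0.05. Cldn5, a tight junction protein, was at -1.42 (edgeR adjusted p = 0.232) and passed in DESeq2's test with an adjusted p of 0.0128, the lowest over its alternatives, which reached 1. Of the 16 further sinusoidal markers 15 of 15 tested had a lower level, with a median of -0.58 and 6 at the unadjusted threshold, among them the receptor Gpr182 at -0.86 and the growth factor Bmp2 at -0.80 (-0.64 and -0.52 without liver CS replicate 2). Without liver CS replicate 2 these became 10 of 12 and 14 of 15, with medians of -0.32 and -0.51, beside 7 of 9 members with a median of -0.16. The sinusoidal genes at the unadjusted threshold then went from 6 to 2, and Gpr182 and Bmp2 were no longer among them. The markers of large vessels and lymphatics went both ways, with 3 higher and 5 lower of 8 tested and a median of -0.35, and 4 of each with a median of 0.0016 without that library.

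Markers of macrophages lay in the same direction. Of the 10 Kupffer cell and macrophage markers 9 of 9 tested had a lower fitted level in the PS livers (median log2 fold change -0.76), and the scavenger receptor Marco was at -1.35 (edgeR adjusted p = 0.704). Without liver CS replicate 2 the list had 8 of 9 lower with a median of -0.59, and Marco was also at -0.59. Their summed level was 361 to 514 CPM in the CS and 123 to 427 CPM in the PS livers. Of the stellate, pericyte and smooth muscle markers 7 of 7 tested were lower, with a median of -0.48 (6 of 7 and -0.44 without CS replicate 2). The hepatocyte markers had 3 higher and 3 lower, with a median of 0.01. Their summed level was 114500 to 155900 CPM in the CS and 142800 to 179500 CPM in the PS livers. On average most of that sum was Alb, which encodes albumin, with means of 85660 CPM in CS and 114400 CPM in PS livers. Alb was at 0.40 (edgeR adjusted p = 0.660), and Cps1, of the same list, was at -0.41 (edgeR adjusted p = 0.931). The mean log2 CPM of 11 pan-endothelial genes was lowest in PS replicates 1, 2 and 3, at 2.77, 2.89 and 2.72, against 3.39 to 3.96 in the CS livers and 3.25 and 3.65 in PS replicates 4 and 5. Set against that mean, the diet groups overlapped for each of the 9 members, with shifts from -0.33 for Kdr to 0.89 for Lyve1. The part of the cell mix in the members' levels was not tested.

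The ligands and partners of the members are the remaining part of their pathways. Of the VEGF and angiopoietin list, 9 of 12 genes were tested in the liver, where 0 passed the adjustment, and Vegfa, the main ligand of KDR, was at 0.75 with an unadjusted p of 0.0106 (edgeR adjusted p = 0.444). In the lung 1 of 12 passed, Vegfb, a ligand of FLT1, which rose by 0.76 on the log2 scale (edgeR adjusted p = 0.0311). Its value was 0.47 with the trend with GC content removed, where its adjusted p was 0.0807. Of the BMP9 and endoglin list, 0 of 10 tested in the liver and 0 of 9 in the lung passed the adjustment. In the liver Tmem100, a membrane protein downstream of ALK1, was at 1.49 and Id3, a transcriptional target of BMP signaling, at -0.84, with unadjusted p of 0.0222 and 0.0140 and edgeR adjusted p of 0.541 and 0.476. At the unadjusted threshold, this list had 1 gene in each direction in the liver and 1 lower in the lung. Without liver CS replicate 2 it had 3 in the liver, and Tmem100 was at 2.20 (edgeR adjusted p = 0.102).

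In the lung the other endothelial lists went both ways. Robo4, an endothelial guidance receptor, rose by 0.89 (edgeR adjusted p = 0.0217) and was the 1 of 12 pan-endothelial genes called, with a list median of 0.27. Of the 15 sinusoidal markers tested, Gpr182 rose by 0.60 (adjusted p = 0.0372) and Ntn4 fell by 0.66 (adjusted p = 0.0317), both by edgeR. Both of these genes were called higher in the lung than in the liver. The 12 lung capillary markers had 0 called after adjustment, with 1 up and 3 down at an unadjusted p of at most 0.05 and a median of -0.17. Among 7 macrophage markers tested Adgre1, which encodes the surface protein F4/80, fell by 0.81 (edgeR adjusted p = 0.0448). The list did not follow it, with 5 genes at a higher and 2 at a lower fitted level in PS lungs, a median of 0.36, and 2 up and 1 down at an unadjusted p of at most 0.05. The fits that left out 1 lung each kept the call of Robo4, Vegfb, Gpr182 and Ntn4 in 2 of 6 and that of Adgre1 in 1 of 6.

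The diet difference was also set against itself between the organs, in a fit of the interaction over all 15 libraries. By edgeR, 0 members were called, where 0.0226% of 17696 genes were, and 2 of 10 members had an unadjusted p of at most 0.05, where 10.9% of genes did. These were the stabilins, Stab2 with a difference of 1.08 (unadjusted p = 0.00723, adjusted p = 0.334) and Stab1 with 1.10 (unadjusted p = 0.0226, adjusted p = 0.403), both on the log2 scale with PS over CS higher in the lung than in the liver. Without liver CS replicate 2 the difference of Stab1 was 0.60. By DESeq2 0 members were called as well, with 2 at the unadjusted threshold, where 13.6% of genes were. For Kdr the difference was -0.25 (95% interval, -1.28 to 0.78), so the fall in the lung was not shown to differ from the value in the liver. The interval of Flt1, from -0.56 to 1.02, and that of Tek, from -0.65 to 0.88, also include 0. Car4 has no usable value here, with 2 counts in all livers.

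For the 9 members counted in every liver, the genes with the most similar pattern were sought among 10242 candidate genes. The measure was Pearson r of log2 CPM over the 15 libraries after subtraction of each tissue and diet group's mean. Candidates had a mean log2 CPM of at least 1 in each tissue, which Stab2, Clec4g and Car4 did not reach. Kdr was most like Gatm (r = 0.93) and Tmem2 (0.93), and Flt1 most like Rpl9-ps6 (0.93) and Vopp1 (0.93). Tek was most like Kit (0.84) and Tspan7 (0.81), and Clec4g like Adgre1 (0.91) and again Tspan7 (0.89). Lyve1 was most like Cd300lg (0.91) and Slc7a8 (0.90), and Vwf like Eogt (0.86) and Haus3 (0.85). Eng was most like Pip4k2a (0.96) and Stx6 (0.95), Stab1 like Aspscr1 (0.97) and Zcchc8 (0.96), and Stab2 like Zfp426 (0.84) and Amy1 (0.83). Car4 was left out, since single reads set its liver values. Of the members that were candidates, none was among the most similar genes of another. With so many candidates over 15 libraries, high values of r arise among unrelated genes, and the list is a description.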

How the data were processed

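Poly(A) RNA from frozen liver and lung was sequenced, 1 library per tissue and mouse. Per the submitters' notes and the paper's methods, cleaned paired-end reads were aligned with HISAT2 2.0.5 and counted per gene with featureCounts 1.5.0-p3, and the counts were deposited by the authors without normalization. They also deposited FPKM values, which were not used here (their test was DESeq2 1.20.0). Groups came from the labels.

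From the counts, edgeR 4.0.16 in R 4.3.3 (TMM, default filter on low counts, robust quasi-likelihood test) was run on the diets in each tissue separately, and on the tissues and the interaction in 1 fit over 15 libraries. P-values were adjusted over all genes tested (Benjamini-Hochberg), with calls at an adjusted p under 0.05. Levels in CPM use TMM factors over all 15 libraries, which depart by at most 4.38% from factors within a tissue. Depth, 14410117 to 19396057 counts per library, limits the members with few counts. P-values rest on the spread between mice within the groups. The fit over 15 libraries had no term for the mouse, although 6 mice gave both tissues. With mouse as a block, the lowest edgeR adjusted p of a member between the tissues was 1.83e-08, in place of 2.34e-13.

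The members and lists were chosen with earlier results of these data known. Of the lists, genes with an adjusted p under 0.05 in a diet fit and those among the 2 largest differences of their list in a fit could be named, and Cdh5 was added after its values were seen. The other marker lists, of large vessels and lymphatics, platelets and red cells and heart muscle, had 0 genes called between the diets in either tissue. For each member other than Car4 the 2 genes most like it were named. The settings varied were the scaling (DESeq2's size factors), the tool (Wald test of DESeq2 1.42.0), no filter, column totals, a replicate block, leaving out each library and, chosen after seeing the data, removal of each library's trend with GC content or gene length. The transcripts were searched for near-identical copies of the members (95% over 200 bases), and 0 were found. The mice pair the tissues by the labels, and the deviations of a mouse's liver and lung from their group means correlated with r from -0.04 to 0.10. Replicate numbers within a tissue mark no shared animal. The replicate block left out liver PS replicate 5, since no CS liver has that number.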

Additional observations from a re-analysis of the deposited data

Results flagged for a closer look

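Of 18 sets of liver levels examined, those in each diet of the 9 members counted in every liver, 2 held a liver far from the others of its group, and chance gives about 1 in 20. Eng stood at 190 CPM in liver CS replicate 2, with 80.5 CPM as the next highest of the 4 CS livers. Stab1 stood at 97.6 CPM in the same liver, with 38.2 CPM as the next highest. Both values come from the liver whose whole profile stood apart, and whether they share its source was not tested. The lungs, with 3 mice in each group, were not examined in this way.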

How the results depend on the processing

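Among the members, the calls between the tissues were the steadiest. Over the alternatives 9 or 10 members were called, the 10th being Stab1, at 1.73 on the log2 scale with column totals and 0.58 without liver CS replicate 2, and the 9 to 10 range also held over the fits that left out 1 library each. The genes called there ran from 13294 to 13992 over those fits. In the liver 0 members were called under each setting run there (column totals were not), while the genes called went from 1 to 163 with DESeq2's test, 26 without a filter, and 0 with the replicate block, with the GC content trend removed and with the gene length trend removed, and from 0 to 65 over the fits without 1 liver. Genes at an unadjusted p of at most 0.05 went from 996 to 1613 without a filter and 484 with the replicate block, and ran from 699 to 1891 over the fits without 1 liver, with the 1891 without CS replicate 2. In the lung the 2 members called stayed 2 with DESeq2's test, where 3090 genes were called in place of 1542, fell to 1 with the gene length trend removed, and ran from 0 to 2 over the fits without 1 lung, where the genes called ran from 0 to 2949. The 2 were called without PS replicate 1 and 0 were called without CS replicate 1, 2 or 3 or PS replicate 2. With the replicate block the lung had 2 members and 1623 genes called, and the numbers are no pairing. In the interaction 0 members were called under each setting run there (removal of the GC content and gene length trends was not), and the genes called went from 4 to 233 with DESeq2's test, 10 without a filter and 0 with mouse as a replicate block, and from 0 to 12 over the fits without 1 library. With that block of the 6 paired mice 9 members were called between the tissues, and no member's call changed.

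Values that changed sign were small or rested on 1 library. With the replicate block, which leaves out liver PS replicate 5, Lyve1 in the liver was at -0.11 (log2). With the GC content trend removed Tek and Lyve1 in the lung were at 0.032 and 0.015. Over the fits without 1 library each, the liver values ran from -0.37 to 0.32 for Stab1 (positive without CS replicate 2) and from -0.054 to 0.74 for Lyve1 (negative without PS replicate 5). In the lung Flt1 ran from -0.028 to 0.099 (negative without CS replicate 3 or PS replicate 3) and Vwf from -0.023 to 0.33 (negative without PS replicate 3). In the interaction Kdr was at 0.21 with mouse as a replicate block and ran from -0.43 to 0.025 (positive without liver PS replicate 5), and Tek from -0.082 to 0.37 (negative without liver CS replicate 4). The cause of these changes was not tested.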
